A study of Mus musculus with 6 samples.

Results

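The genes described here are 31 named genes of the lysosome: 11 lysosomal proteases, 7 other hydrolases and activators, 5 membrane, sterol and ion transport proteins, 2 transcription factors and 6 parts of the proton pump. They were taken by gene symbol from a deposited expression table of 29587 gene rows, and all 31 of 31 were found. The table covers 6 RNA sequencing libraries of apoptotic osteoblasts, called apoOBs by the submitters: 3 libraries labelled young and 3 labelled old. In both groups, pieces of mouse bone were cultured, the adherent cells were passaged, and the resulting cells, named bone marrow mesenchymal stem cells, received osteogenic medium for 3 days and then ultraviolet light for 0.5 h. No untreated or living osteoblasts are among the libraries, so a level here belongs to a culture that had already been killed. The labels give the genotype as none, and say nothing of strain, sex, age in months or how many animals stand behind a library. Whether a group's libraries stand for different mice is left unsaid, so each p-value reflects only how much these particular libraries vary, possibly for technical reasons.

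Lysosomes are acidic compartments in which proteins, glycans and lipids are broken down. A proton pump, the V-type ATPase, acidifies them: its V1 sector hydrolyses ATP on the cytosolic side and its V0 sector carries protons through the membrane. Cathepsins and glycosidases work at that low pH, membrane glycoproteins line the compartment, and the related transcription factors TFEB and TFE3 switch on many of these genes by binding E-box sequences in their promoters. In bone, cathepsin K is best known as the collagen-degrading protease of osteoclasts, and engulfed apoptotic cells are digested in the lysosomes of the cell that takes them up.

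Depth was 64881180 to 84535939 recovered reads per library, and 11242 to 12074 genes reached 1 RPKM, a read count divided by gene length in kilobases and by the library total. The first young library stood apart from the others. Its log2 values correlated with those of young replicates 2 and 3 at a Pearson r of 0.949 and 0.962 across genes, against 0.996 between those 2 and 0.995 to 0.997 among the old libraries. It also had the lowest share of mitochondrial reads, 1.05%, against 2.13% and 2.29% in the other young libraries and 1.62 to 1.89% in the old. Counts of called genes are therefore given with and without it. The osteoblast label was checked against 12 markers: Col1a1, a chain of type I collagen, stood at 1062 to 1829 RPKM and the transcription factor Runx2 at 3.67 to 5.66 RPKM, while Alpl, Bglap and Phex stayed under 1 RPKM. Of the 9 osteoblast markers tested, limma called the matrix protein gene Spp1 higher in old, at a log2 fold change of 1.36 (adjusted p = 0.031). The transcription factor gene Sp7 was called lower, at -0.68 (limma adjusted p = 0.019). Over all tested genes, 1.47% were called higher and 0.0999% lower. Across the 10 macrophage markers in the table the summed level was 8.28 to 9.59 RPKM in young and 9.24 to 10.6 RPKM in old, most of it from Lyz2. Ptprc, Adgre1 and Mrc1 were at or near 0 in every library, while Csf1r stood at 0.360 to 0.618 RPKM, Cd14 at 0.307 to 0.662 RPKM and Cd68 at 0.540 to 1.04 RPKM. The 9 osteoclast markers summed to 33.3 to 41.3 RPKM in young and 31.1 to 33.5 RPKM in old, most of it Ctsk itself. Calcr, Oscar and Ocstamp were at or near 0, while Itgb3 stood at 2.23 to 3.53 RPKM, Nfatc1 at 0.983 to 1.92 RPKM and Mmp9 at 0.287 to 0.674 RPKM.

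The sequences of 6 promoters are shown first. All but that of Lamp1 hold the 8-base palindrome TCACGTGA, the form of E-box associated with TFEB and TFE3. That of Lamp1 holds the largest number of 6-base E-boxes CACGTG among the 26 genes matched to a RefSeq promoter. Each sequence runs 5′ to 3′ along the gene, from 250 bases before the RefSeq transcript start to 30 bases past it, in the build GRCm38.p6. The start that the deposited table uses can differ. The windows are chr2:164833523-164833802 on the plus strand for Ctsa, chr7:142387798-142388077 on the minus strand for Ctsd, chr8:13158911-13159190 on the plus strand for Lamp1, chr8:3500269-3500548 on the plus strand for Mcoln1, chr8:105566035-105566314 on the minus strand for Atp6v0d1 and chr16:44139230-44139509 on the minus strand for Atp6v1a. Capitals mark CACGTG, or all 8 bases where TCACGTGA is complete.
Ctsa: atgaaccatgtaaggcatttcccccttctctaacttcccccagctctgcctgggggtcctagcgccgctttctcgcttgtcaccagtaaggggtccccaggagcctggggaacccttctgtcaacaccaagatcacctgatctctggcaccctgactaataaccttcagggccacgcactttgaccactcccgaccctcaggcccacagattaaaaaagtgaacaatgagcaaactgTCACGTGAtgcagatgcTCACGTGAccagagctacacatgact
Ctsd: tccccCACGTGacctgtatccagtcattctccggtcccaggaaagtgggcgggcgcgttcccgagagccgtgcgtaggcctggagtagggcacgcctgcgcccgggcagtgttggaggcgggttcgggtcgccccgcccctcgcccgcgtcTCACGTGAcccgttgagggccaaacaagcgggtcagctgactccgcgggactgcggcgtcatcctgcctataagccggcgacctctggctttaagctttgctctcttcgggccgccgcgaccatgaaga
Lamp1: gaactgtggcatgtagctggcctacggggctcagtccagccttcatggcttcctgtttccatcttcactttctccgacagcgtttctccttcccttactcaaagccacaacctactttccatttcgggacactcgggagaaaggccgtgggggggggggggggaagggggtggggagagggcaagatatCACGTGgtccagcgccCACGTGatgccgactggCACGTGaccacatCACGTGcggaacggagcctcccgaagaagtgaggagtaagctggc
Mcoln1: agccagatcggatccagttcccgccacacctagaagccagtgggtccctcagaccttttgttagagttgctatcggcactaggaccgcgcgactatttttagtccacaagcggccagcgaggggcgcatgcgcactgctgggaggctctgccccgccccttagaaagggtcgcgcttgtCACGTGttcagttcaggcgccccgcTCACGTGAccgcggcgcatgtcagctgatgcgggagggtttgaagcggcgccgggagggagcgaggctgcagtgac
Atp6v0d1: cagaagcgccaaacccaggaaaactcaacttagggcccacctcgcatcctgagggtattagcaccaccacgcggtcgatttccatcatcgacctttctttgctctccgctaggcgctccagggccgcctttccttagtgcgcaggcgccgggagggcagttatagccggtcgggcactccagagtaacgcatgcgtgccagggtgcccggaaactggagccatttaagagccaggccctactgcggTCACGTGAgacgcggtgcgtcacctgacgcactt
Atp6v1a: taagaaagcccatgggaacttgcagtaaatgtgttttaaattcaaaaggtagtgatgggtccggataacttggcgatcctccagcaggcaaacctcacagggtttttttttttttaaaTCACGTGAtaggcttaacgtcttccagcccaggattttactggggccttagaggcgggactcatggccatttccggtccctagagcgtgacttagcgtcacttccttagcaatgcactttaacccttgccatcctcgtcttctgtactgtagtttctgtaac

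Both motifs are palindromes and read the same on either strand, and every TCACGTGA contains a CACGTG. Over the window from 250 bases before to 50 bases after the start, 12 of the 26 genes matched to a RefSeq promoter held CACGTG, or 46.2%. The share was 8.09% of all 27025 genes with such a promoter and 12.1% of the 7805 of these that entered the comparison of old with young. TCACGTGA was found in 5 of the 26 genes, or 19.2%, against 2.40% of the tested genes. Among 75 other lysosomal genes with a promoter, the shares were 21.3% for CACGTG and 9.33% for TCACGTGA. Ctsa held 2 copies of TCACGTGA, whose inner CACGTG begins 12 bases before and 5 bases after the start. Lamp1 held 4 copies of CACGTG within the last 61 bases before its start. Lgmn, Glb1, Gaa, Naglu, Ctsl and Ctsf held 1 copy of CACGTG each. The promoters of Tfeb and Tfe3, 5 windows in all, held none. A match is a run of letters and no measurement of binding.

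Across the 31 genes, no change between old and young was called, and the levels spanned from more than 100 RPKM to a few reads. Of the 29 genes that entered the test (those that reached 1 RPKM in 3 or more libraries), limma on log2(RPKM + 1) called 0 higher and 0 lower in old at an adjusted p under 0.05, over all 12015 tested genes. The background is small too: 1.47% of tested genes were called higher and 0.0999% lower. At an unadjusted p under 0.05, 2 of the 29 passed, Gusb and Ctsh, both lower in old, against 11.2% of all tested genes in either direction. Limma's voom on the recovered reads also called 0 of the 29, against 1.41% of all tested genes. The median log2 fold change of old against young was 0.05, with an interquartile range of -0.06 to 0.13, and 17 of 29 values were positive. Over all tested genes the median was 0.0055, with an interquartile range of -0.11 to 0.12, and 6157 of 12015 values were positive. All 29 of the 95% intervals lay within a log2 fold change of 1 in either direction, as did 11132 of 12015 over all tested genes. The widest of the 29 reached -0.67 for Ctsz and 0.71 for Naglu, so a doubling or halving on this scale lies outside them. The median standard error of the 29 log2 fold changes was 0.11. In such mixed RNA, fewer cells of a kind and less RNA per cell cannot be told apart.

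**Figure D1:**
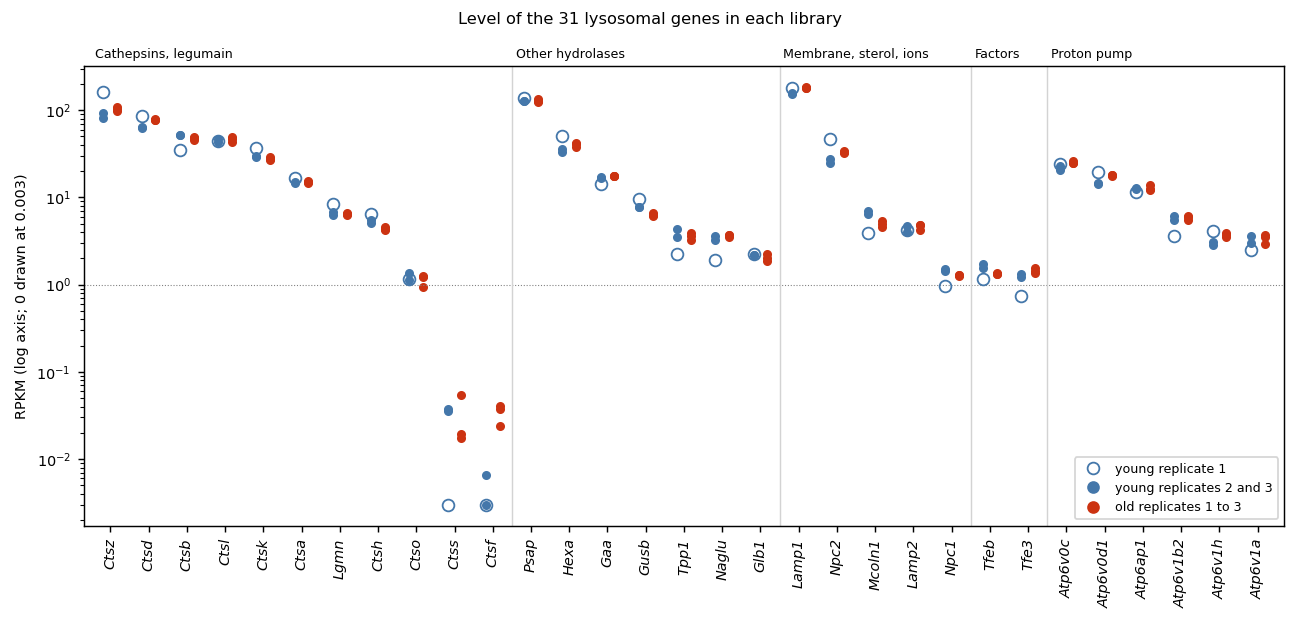
Each of the 31 lysosomal genes is shown by its RPKM on a log axis in each of the 6 libraries, grouped by role and ordered by mean within a role. Open circles are young replicate 1, filled blue points young replicates 2 and 3 and red points the 3 old libraries. The dotted line marks 1 RPKM, 0 is drawn at 0.003, and the open circle lies away from the other young points for many genes.

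Summed over the 31 genes, the level was 918.9, 753.7 and 762.3 RPKM in young replicates 1, 2 and 3 and 842.2, 831.9 and 814.6 RPKM in old replicates 1, 2 and 3. The old sums lay between those of young replicate 1 and of the other young libraries, so the groups overlapped. Lamp1, Psap, Ctsz and Ctsd, with means over all libraries of 172.6, 129.6, 107.4 and 74.5 RPKM, led the sum.

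Among the 11 lysosomal proteases, 9 entered the test. The most abundant was Ctsz (chr2:174427493-174439039), which encodes cathepsin Z, a carboxypeptidase. Its level was 162.1, 81.5 and 92.0 RPKM in young replicates 1, 2 and 3 and 104.2, 107.7 and 97.2 RPKM in old replicates 1, 2 and 3. Young replicate 1 was far above every other library, and the other 2 young libraries were below all 3 old ones. The log2 fold change was -0.05 ± 0.26 (standard error; adjusted p = 0.99 by limma). Ctsd (chr7:142375911-142388038), which encodes the aspartic protease cathepsin D, had the same layout at 86.4, 62.1 and 63.7 RPKM in young and 78.2, 79.9 and 77.0 RPKM in old. Its log2 fold change was 0.16 ± 0.14 (standard error; adjusted p = 0.85 by limma). The table lists a second gene on the same strand, RP23-145I16.3, which shares 808 exon bases with Ctsd, so the split of reads between them is uncertain.

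Cathepsin B, a cysteine protease encoded by Ctsb, ran the other way in young replicate 1. Ctsb stood at 34.6 RPKM there, at 52.1 RPKM in each of young replicates 2 and 3, and at 47.5, 45.2 and 49.6 RPKM in old. Ctsl, for the cysteine protease cathepsin L, was the steadiest of the abundant proteases, at 44.5, 43.8 and 46.5 RPKM in young and 47.0, 42.8 and 48.8 RPKM in old. Ctsa, for cathepsin A, a carboxypeptidase that also protects other lysosomal enzymes, stood at 15.4 ± 1.09 RPKM over the young and 15.1 ± 0.408 RPKM over the old libraries (SD, n = 3 each). Ctsb and Ctsa share 767 and 495 exon bases with Fdft1 and Pltp on the opposite strand, and whether the counting used strand is not given in the sources used here.

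Ctsh (chr9:90054152-90076089), which encodes the aminopeptidase cathepsin H, was the protease with the smallest p. It stood at 6.40, 5.05 and 5.54 RPKM in young and 4.25, 4.38 and 4.54 RPKM in old. Every old library was below every young one. The log2 fold change was -0.30 ± 0.10 (standard error; adjusted p = 0.34 by limma), which did not pass the threshold. Ctsk (chr3:95499256-95509362), the collagen-degrading cathepsin K, stood at 36.5, 30.1 and 28.9 RPKM in young and 28.9, 27.6 and 27.0 RPKM in old, with a log2 fold change of -0.18 ± 0.11 (standard error; adjusted p = 0.71 by limma). The lowest young and the highest old library were almost level, and young replicate 1 was the highest of the 6.

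Lgmn encodes legumain, which cuts after asparagine and matures cathepsins. It stood at 8.38, 6.31 and 6.81 RPKM in young and 6.60, 6.26 and 6.41 RPKM in old, with the groups overlapping. Ctso, for the little-studied cathepsin O, lay just above the filter at 1.22 ± 0.129 RPKM over the young and 1.14 ± 0.173 RPKM over the old libraries (SD, n = 3 each). The remaining proteases, Ctss and Ctsf, were at trace level and were not tested. Ctss, the cathepsin of antigen-presenting cells, had 0, 4 and 4 reads in young and 2, 2 and 6 reads in old. Ctsf had 0, 1 and 0 reads in young and 4, 6 and 6 reads in old, a handful of reads that cannot carry a fold.

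The 7 other hydrolases and activators were led by Psap (chr10:60277627-60302597), which encodes prosaposin, the precursor of the saposins that present sphingolipids to their hydrolases. Psap stood at 138.7, 127.9 and 126.0 RPKM in young and 133.2, 128.7 and 122.9 RPKM in old. Its log2 fold change was -0.03, with a 95% interval of -0.25 to 0.19. The groups overlapped throughout. Gusb (chr5:129989011-130003049), for beta-glucuronidase, had the smallest p of all 29 genes. Its level was 9.55, 7.71 and 7.70 RPKM in young and 6.68, 6.15 and 6.28 RPKM in old, so that every old library was below every young one. The log2 fold change was -0.33 ± 0.11 (standard error; adjusted p = 0.31 by limma), again short of the threshold.

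Hexa, which encodes the alpha chain of beta-hexosaminidase, stood at 50.8 RPKM in young replicate 1 against 33.6 and 36.3 RPKM in the other young libraries and 42.2, 40.8 and 37.9 RPKM in old. Without the first young library, all 3 old values were above both young ones. Gaa, for acid alpha-glucosidase, the enzyme of lysosomal glycogen breakdown, had 14.2, 16.8 and 17.0 RPKM in young and 17.8, 17.4 and 17.4 RPKM in old. Its old libraries were above all young ones, by 0.13 ± 0.10 on the log2 scale (standard error; adjusted p = 0.81 by limma). Naglu, which trims heparan sulphate, stood at 1.90, 3.57 and 3.22 RPKM in young and 3.53, 3.67 and 3.71 RPKM in old, and the low value of young replicate 1 set most of its log2 fold change of 0.28 ± 0.18 (standard error; adjusted p = 0.73 by limma). Tpp1, for the tripeptidyl peptidase that removes short peptides from protein ends, showed the same low first library at 2.24 RPKM, against 3.29 to 4.34 RPKM elsewhere. Glb1, for beta-galactosidase, the enzyme behind the senescence stain of that name, stood at 2.26, 2.20 and 2.20 RPKM in young and 2.04, 1.85 and 2.22 RPKM in old, with a log2 fold change of -0.09 ± 0.08 (standard error; adjusted p = 0.87 by limma). Its groups overlapped through the third old library. Glb1 shares 165 exon bases with Tmppe on the same strand, so the split of reads between them is uncertain.

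Lamp1 (chr8:13159161-13175338), the major glycoprotein of the lysosomal membrane, was the most abundant of the 31 genes. It stood at 179.6, 157.5 and 152.9 RPKM in young and 182.1, 185.7 and 177.9 RPKM in old. Young replicate 1 lay among the old values and the other young libraries lay below them. The log2 fold change was 0.16 ± 0.10 (standard error; adjusted p = 0.72 by limma). Lamp2, its relative that also serves chaperone-mediated autophagy, stood at 4.33 ± 0.35 RPKM over the young and 4.64 ± 0.312 RPKM over the old libraries (SD, n = 3 each), far below Lamp1 per unit of gene length.

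Npc2, a soluble protein that hands cholesterol to the membrane protein encoded by Npc1, had the most extreme first library after Ctsz. Npc2 stood at 46.5 RPKM in young replicate 1, at 24.6 and 27.3 RPKM in the other young libraries, and at 32.0, 33.2 and 33.7 RPKM in old. With 6 libraries its log2 fold change was 0.06 ± 0.23 (standard error; adjusted p = 0.99 by limma). Npc1 stood at 0.977, 1.502 and 1.445 RPKM in young and 1.26, 1.30 and 1.29 RPKM in old. Mcoln1 (chr8:3500457-3515232), which encodes the calcium channel of the lysosomal membrane, stood at 3.89, 6.46 and 7.01 RPKM in young and 4.64, 5.43 and 5.005 RPKM in old. There the first young library was the lowest of all and the other 2 were the highest, giving a log2 fold change of -0.14 ± 0.20 (standard error; adjusted p = 0.95 by limma).

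The 2 transcription factors were expressed at low level. Tfeb (chr17:47737030-47792419) stood at 1.16, 1.56 and 1.72 RPKM in young and 1.32, 1.37 and 1.32 RPKM in old, with a log2 fold change of -0.08 ± 0.10 (standard error; adjusted p = 0.95 by limma). Tfe3 (chrX:7762560-7775202) stood at 0.736, 1.32 and 1.22 RPKM in young and 1.42, 1.37 and 1.55 RPKM in old, with a log2 fold change of 0.24 ± 0.12 (standard error; adjusted p = 0.61 by limma). Tfe3 was higher in each old library than in any young one, while Tfeb overlapped. Both factors are regulated mainly by their entry into the nucleus, which these data do not measure.

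All 6 genes of the proton pump on the list had positive log2 fold changes, from 0.05 to 0.20, with a median of 0.14. None was called, and 6157 of all 12015 tested genes had positive values. Without young replicate 1, Atp6v1b2, Atp6v1a and Atp6ap1 were at 0.016, 0.019 and 0.0026, and Atp6v0d1, Atp6v1h and Atp6v0c at 0.30, 0.25 and 0.22. Atp6v0c (chr17:24163866-24169702) encodes the proteolipid of the proton-carrying ring. It stood at 24.3, 22.7 and 20.6 RPKM in young and 26.5, 24.6 and 25.1 RPKM in old, with every old value above every young one and a log2 fold change of 0.17 ± 0.09 (standard error; adjusted p = 0.65 by limma). Atp6v0c shares 927 exon bases with Gm43796 on the same strand, so its level is uncertain. Atp6v0d1 (chr8:105524465-105566047), for the d subunit that couples the ring to the stalk, stood at 19.4, 14.6 and 14.3 RPKM in young and 18.3, 18.2 and 17.5 RPKM in old. Its first young library again lay above the old ones and the other 2 below them.

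Atp6ap1, an accessory protein needed for assembly of the pump, stood at 12.4 ± 0.757 RPKM over the young and 12.8 ± 0.8 RPKM over the old libraries (SD, n = 3 each). Of the V1 sector, Atp6v1b2 and Atp6v1a encode the B and A subunits of the ATP-splitting head, and Atp6v1h a regulatory subunit. Atp6v1b2 stood at 3.59, 6.06 and 5.52 RPKM in young and 6.16, 5.46 and 5.97 RPKM in old. Atp6v1a stood at 2.48, 3.65 and 3.02 RPKM in young and 3.56, 2.89 and 3.73 RPKM in old. Both were lowest in young replicate 1, and both overlapped between groups. Atp6v1h was highest there, at 4.13 RPKM, against 3.05 and 2.88 RPKM in the other young libraries and 3.91, 3.47 and 3.75 RPKM in old.

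**Figure D2:**
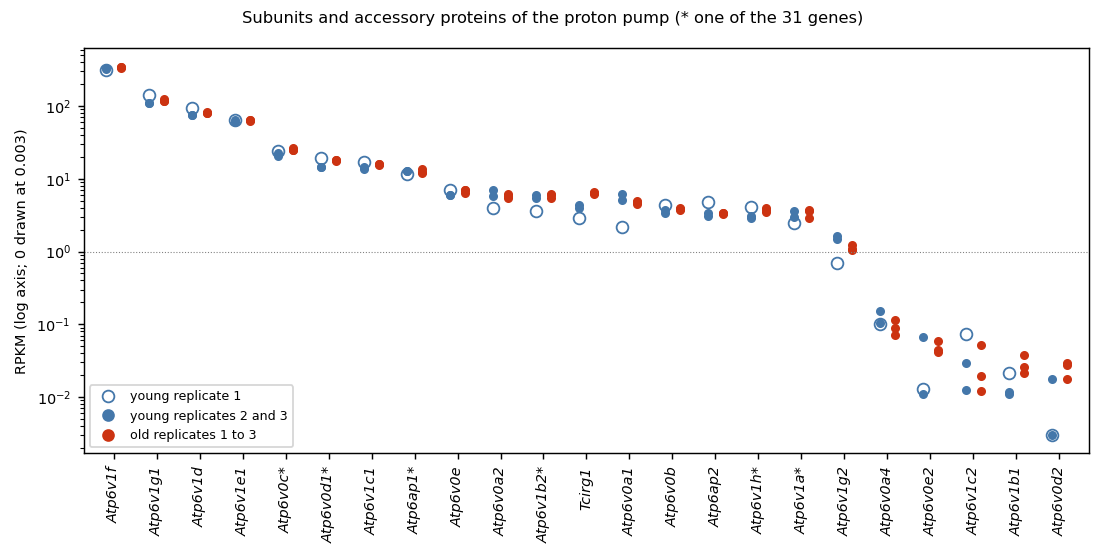
Subunits and accessory proteins of the V-type ATPase are shown by RPKM on a log axis in each library, ordered by mean, with an asterisk on the 6 that belong to the 31 genes. Open circles are young replicate 1, filled blue points the other young libraries and red points the old libraries; the dotted line marks 1 RPKM. Atp6v1f stands highest at 334.7 RPKM on average, and 5 subunits, Atp6v0d2 among them, stay near 0.

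The other 17 subunits of the pump were set beside these 6, and 12 of them entered the test. Limma called 0 of the 12 in either direction. Tcirg1, which encodes the a3 subunit known from the osteoclast's acid-secreting membrane, had the smallest p: it stood at 2.90, 4.33 and 3.97 RPKM in young and 6.38, 6.57 and 6.22 RPKM in old. All old libraries were above all young ones. The log2 fold change of Tcirg1 was 0.66 ± 0.13 (standard error; adjusted p = 0.097 by limma), the largest among the pump genes tested. Without young replicate 1 it was 0.52 and was called (adjusted p = 0.0026 by limma), as were Atp6v1c1 at 0.17 and Atp6v1g2 at -0.27. That made 2 of the 12 higher and 1 lower, beside 13.2% and 19.4% of all tested genes in that fit. With 6 libraries, Atp6v0e and Atp6v1f came next after Tcirg1 in p, at log2 fold changes of 0.09 and 0.08. Atp6v0e overlapped between groups, while Atp6v1f had every old library above every young one. Atp6v0d2, the d subunit of osteoclasts, was at 0.015 RPKM on average while Atp6v0d1 was at 17.0, so the d subunit read here was almost all Atp6v0d1. Levels of subunits of one complex ranged from 1.19 RPKM for Atp6v1g2 to 334.7 RPKM for Atp6v1f among those tested, on a scale that divides by the whole exon length of a gene, untranslated ends included.

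Young replicate 1 was the highest of the 6 libraries for 13 of the 29 tested genes and the lowest for 11, or 44.8% and 37.9%. Over all tested genes it was highest for 28.8% and lowest for 48.2%. Its deviation from the other 2 young libraries was related to gene length: across the 29 genes the Pearson r with log2 length was -0.55 and the Spearman rho -0.59, and across all tested genes -0.21 and -0.35. These are descriptions over genes of the same 3 libraries. Short genes such as Ctsz (1441 bases; 0.90 above the other young libraries on the log2 scale), Hexa (1996 bases; 0.53 above) and Atp6v0d1 (1793 bases; 0.40 above) were high in it. Longer genes such as Mcoln1 (7555 bases; deviation -0.66), Tfe3 (9261 bases; -0.39) and Npc1 (10725 bases; -0.32) were low. Naglu, at 2658 bases and -0.60, and Atp6v1h, at 9746 bases and 0.37, did not follow that order.

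**Figure D3:**
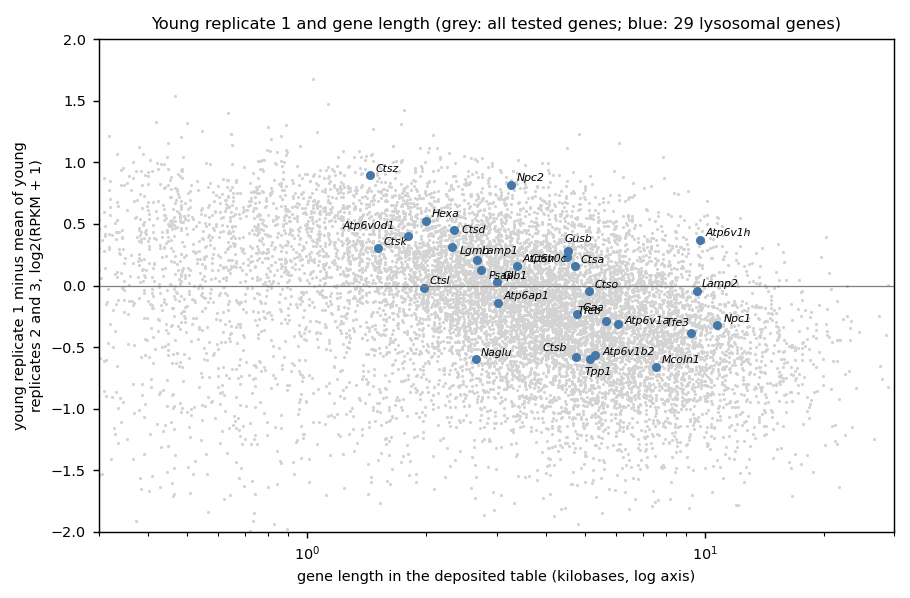
The log2(RPKM + 1) value of young replicate 1 minus the mean of young replicates 2 and 3 is plotted against gene length in kilobases on a log axis. Grey points are all tested genes within the axis range (those beyond it are not drawn) and blue points the 29 tested lysosomal genes, of which the short ones lie mostly above 0 and the long ones mostly below.

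Without young replicate 1, limma called 10 of the 29 genes, 7 higher and 3 lower in old. The background was larger in that fit, with 13.2% of tested genes called higher and 19.4% lower, and the median standard error of the 29 genes was 0.063 in place of 0.11. The young group then rests on 2 libraries. Those higher were Ctsd, Ctsz, Lamp1, Npc2, Atp6v0d1, Atp6v0c and Atp6v1h. The lower ones were Mcoln1, Gusb and Ctsh. The median over the 29 genes was a log2 fold change of 0.02, beside -0.05 for all tested genes.

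Npc2 and Ctsd had the largest positive values, with log2 fold changes of 0.33 ± 0.06 and 0.31 ± 0.05 (standard error; adjusted p = 0.010 and 0.0058 by limma). Atp6v0d1 was at 0.30, Ctsz and Atp6v1h at 0.25 each, Lamp1 at 0.23 and Atp6v0c at 0.22, with limma adjusted p-values from 0.0083 to 0.041. Mcoln1 was at -0.36 ± 0.07 (standard error; adjusted p = 0.015 by limma), Gusb at -0.24 ± 0.06 (standard error; adjusted p = 0.023 by limma) and Ctsh at -0.22 ± 0.06 (standard error; adjusted p = 0.037 by limma). Every one of these 10 differences is under 0.4 on the log2 scale. The other 19 genes lay between -0.17 for Tfeb and 0.20 for Hexa. Osteoblast markers moved in the same fit. Of 9 tested, limma called Spp1 and Dmp1 higher, at log2 fold changes of 1.56 and 0.42. Col1a1, Col1a2, Runx2, Sp7, Ibsp and Dlx5 were called lower, at -0.23 to -0.68. That made 2 higher and 6 lower, beside 13.2% and 19.4% of all tested genes. What part these markers had in the values of the lysosomal genes was not tested. Gusb, Ctsh and Atp6v0c already had groups that did not overlap with all 6 libraries, as did Gaa and Tfe3. That made 3 of the 29 with every old library above every young one and 2 with every old library below, against 10.6% and 10.2% of all tested genes.

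**Figure D4:**
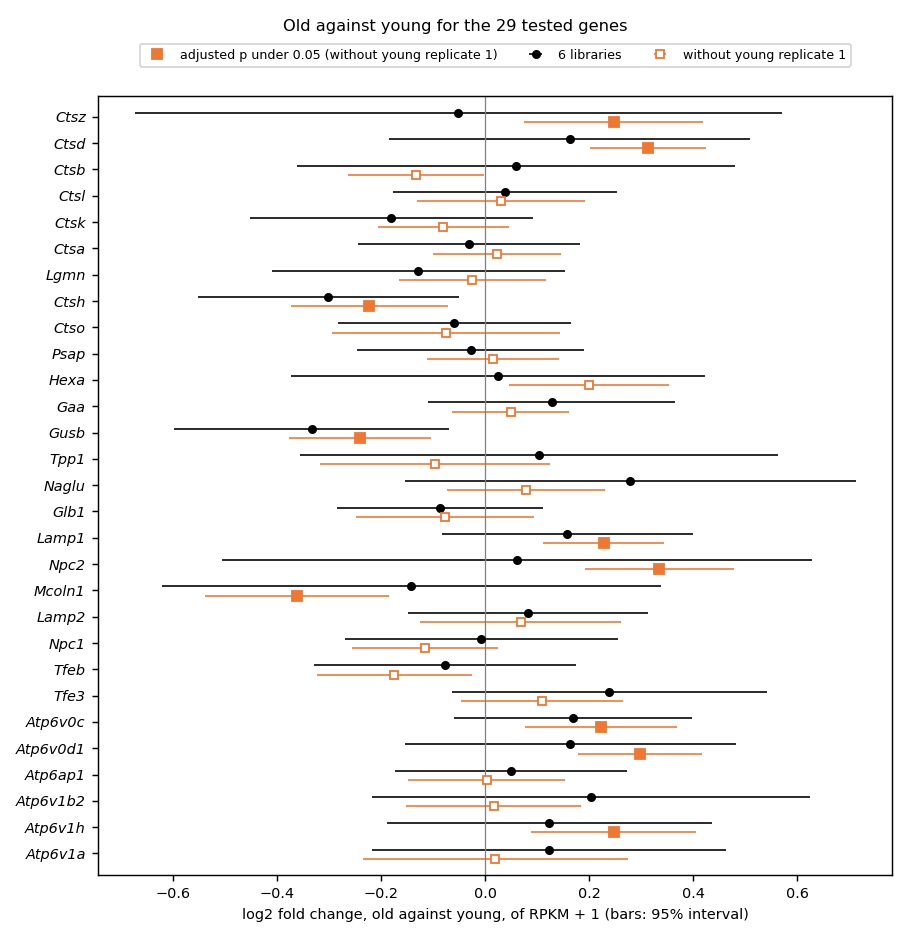
The log2 fold change of old against young on log2(RPKM + 1) is drawn for each of the 29 tested genes with its 95% interval, in black with 6 libraries and in orange without young replicate 1. Filled squares mark an adjusted p under 0.05 without that library. No black point reaches the threshold, while 7 filled squares lie to the right of 0 and 3 to the left.

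With young replicate 1 left out, each library's trend on log2 gene length was also removed, an alternative chosen after seeing the data. In this fit the removal acts on trends of the remaining libraries. Limma then called 8 genes higher and 1 lower, against 13.9% and 15.4% of all tested genes. Ctsd, Npc2, Lamp1, Atp6v0d1, Atp6v0c and Atp6v1h were called higher in both of these fits, and Gusb lower in both. Ctsz, Ctsh and Mcoln1 were no longer called, at limma adjusted p-values of 0.080, 0.089 and 0.094. Lamp2 and Tfe3 were called higher in their place, at log2 fold changes of 0.22 and 0.26 (limma adjusted p = 0.031 and 0.018). Both are long genes, of 9552 and 9261 bases, and stood at 0.07 and 0.11 before the trend was removed.

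Genes with and without the E-box in their promoter were set side by side, with no test. The 11 tested genes with CACGTG had a median log2 fold change of 0.12 and the 13 without it 0.02 with 6 libraries, and 0.03 and 0.01 without young replicate 1. In the latter fit, each of these sets had 3 genes called higher and 1 called lower, beside 13.2% and 19.4% of all tested genes. Of the 5 genes with TCACGTGA, whose promoters are printed above, Ctsd and Atp6v0d1 were called higher and Mcoln1 lower there, while Ctsa and Atp6v1a were at 0.02 each.

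The lysosomal genes outside the 31 gave the same count. Of 98 listed genes, 95 were in the table and 73 entered the test; limma called 0 of them with 6 libraries, 10 had an unadjusted p under 0.05 (11.2% of all tested genes did), and 36 had a positive log2 fold change. Every old library was above every young one for 11 and below for 6 of the 73, beside 10.6% and 10.2% of all tested genes. Those counts include Cln3, Gm2a and Tmem175. These passed the filter through the old or the young libraries alone, so their groups could not overlap. Without young replicate 1, 12 of the 73 were called higher and 10 lower, beside 13.2% and 19.4% of all tested genes. After Tcirg1, the smallest p belonged to Grn, which encodes progranulin, a protein carried to lysosomes and cut there into granulins. Grn stood at 22.6, 21.5 and 21.6 RPKM in young and 29.8, 28.5 and 27.6 RPKM in old, with a log2 fold change of 0.37 ± 0.08 (standard error; adjusted p = 0.11 by limma). Here the first young library did not stand apart, and the groups did not overlap. Without it, Grn was called higher at 0.39 (adjusted p = 0.0044 by limma).

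Among the other membrane proteins, 12 of 18 entered the test. Scarb2, the receptor that carries glucocerebrosidase to lysosomes, stood at 5.47, 6.59 and 6.05 RPKM in young and 8.33, 7.78 and 8.57 RPKM in old, with a log2 fold change of 0.39 ± 0.10 (standard error; adjusted p = 0.17 by limma). Cln3, a lysosomal membrane protein, stood at 0.309, 0.809 and 0.618 RPKM in young and 1.28, 1.17 and 1.22 RPKM in old, with a log2 fold change of 0.51 ± 0.13 (standard error; adjusted p = 0.17 by limma). Both had old libraries above all young ones. Both were called higher without young replicate 1, at 0.33 and 0.38 (adjusted p = 0.013 each by limma). In that fit 4 of the 12 were called higher and 2 lower, beside 13.2% and 19.4% of all tested genes. The calls include Cln3 and, among the lower, Tmem175. Cln3 passed the filter through its old libraries alone, which had to differ for it to be tested. It also shares 442 exon bases on the opposite strand with Apobr, which was at 5.79 ± 1.66 RPKM over the young and 11.04 ± 1.05 RPKM over the old libraries (SD, n = 3 each). Tmem192 and the potassium channel gene Tmem175 followed, at log2 fold changes of 0.24 and -0.14, and Tmem175 passed the filter through its young libraries alone. Tmem175 shares 2090 exon bases on the opposite strand with Dgkq.

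The other acid hydrolases, 27 of 29 tested, leaned the other way, with 8 positive log2 fold changes and a median of -0.09. Over all tested genes 6157 of 12015 were positive, with a median of 0.0055. Aga, for the enzyme that frees asparagine from glycans, stood at 20.4, 21.9 and 21.5 RPKM in young and 17.2, 16.4 and 17.2 RPKM in old, a log2 fold change of -0.31 ± 0.08 (standard error; adjusted p = 0.18 by limma). Gm2a, the activator of ganglioside breakdown by hexosaminidase, and Sgsh, a sulphatase of heparan sulphate, were lower in every old library, at -0.25 and -0.23, though Gm2a passed the filter through its young libraries alone. Gla, for alpha-galactosidase A, was higher in every old library, at 0.35 ± 0.12 (standard error; adjusted p = 0.36 by limma). Without young replicate 1, limma called Gla higher and Aga, Ids, Galc, Hgsnat and Man2b1 lower, or 1 and 5 of the 27, beside 13.2% and 19.4% of all tested genes.

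Of the other proteases and inhibitors, 4 of 8 in the table were tested: Cstb, for the cathepsin inhibitor cystatin B, was at 60.6 ± 6.41 RPKM over the young and 72.6 ± 3.64 RPKM over the old libraries (SD, n = 3 each; limma adjusted p = 0.44), and Cst3, Scpep1 and Prcp overlapped between groups. In the sorting list, 6 of 7 genes were tested, and besides Grn the mannose phosphate receptor gene M6pr, Gnptg and Nagpa had log2 fold changes of 0.07, -0.12 and -0.03. Gnptg shares 1113 exon bases on the opposite strand with Unkl. Among the 12 tested relatives and regulators of Tfeb and Tfe3, Lamtor1 and Lamtor4, parts of the scaffold that anchors mTORC1 at lysosomes, were at 0.23 and 0.25, and Flcn and Rptor at 0.15 and 0.26. Without young replicate 1, limma called Cstb and Scpep1 higher, 2 of the 4 proteases and inhibitors. Lamtor1 and Lamtor4, 2 of the 12 relatives and regulators, were also called higher. Of the 6 sorting genes Grn was called higher and 2 lower, Igf2r and Gnptab, at -0.49 and -0.29. Over all tested genes, 13.2% were called higher and 19.4% lower in that fit.

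**Figure D5:**
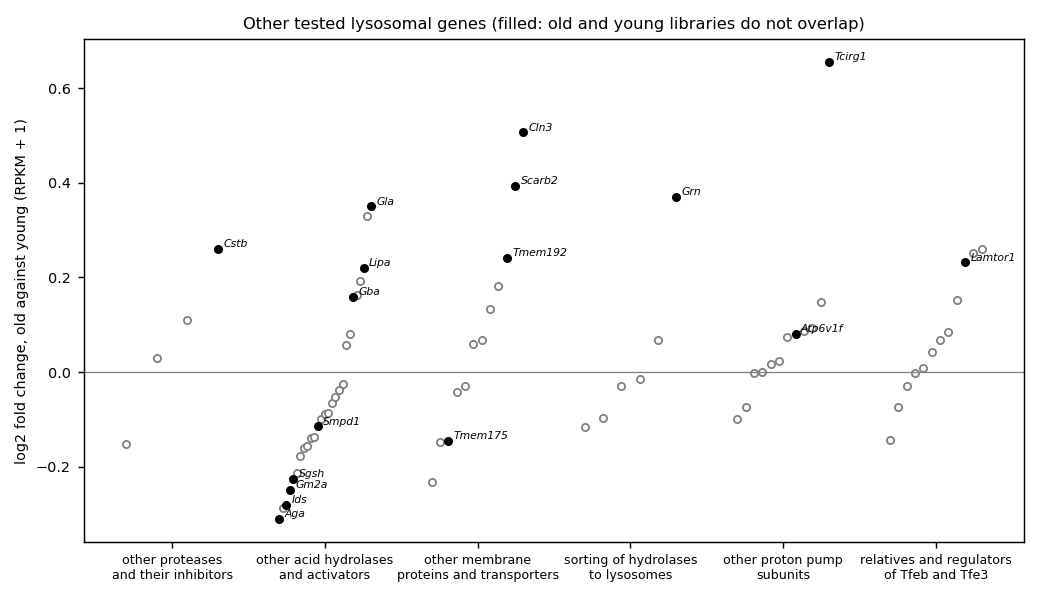
Each of the 73 other tested lysosomal genes is drawn by its log2 fold change of old against young on log2(RPKM + 1), by list and in rising order within a list. Filled points have 3 old libraries that lie all above or all below the 3 young ones. Tcirg1 stands highest and Aga lowest among the filled points. The filled points of Cln3, Gm2a and Tmem175 belong to genes that passed the filter through the old or the young libraries alone.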

How the data were processed

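RNA from 6 libraries of apoptotic osteoblasts, 3 young and 3 old, was compared. The authors deposited RPKM values for 29587 gene rows. Trizol extraction and a messenger RNA kit are given per the labels' protocols; fastp, STAR, HTSeq, edgeR and the build mm10 are named per the submitters' processing notes, without versions or roles. For the annotation and the strand of counting, nothing is given in the sources used here. Groups came from the sample titles. The deposited RPKM times gene length gave whole multiples of 1 read for 100% of values (tolerance 0.01), and the reads recovered so number 64881180 to 84535939 per library. Even numbers made up 77.5 to 79.3% of genes with 1 to 5 reads, so reads are not independent molecules. A floor of 3 reads in 1 kilobase is 0.0355 to 0.0462 RPKM, for counting error only.

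Limma 3.58.1 in R 4.3.3 was fitted on log2(RPKM + 1), group as the only term, with a variance trend, on genes that reached an RPKM of 1 in 3 or more libraries, two-sided, adjusted by Benjamini-Hochberg over 12015 genes. Fold changes on this scale understate low genes. Fits were tested on simulated data. Alternatives were pseudocounts of 0.1 and 0.5, no filter, a floor of 5 on mean RPKM, median-ratio and quantile scaling, removal of each library's loess trend on log2 gene length (span 0.5), voom on recovered reads, the replicate number as a block, an adjusted p under 0.1, and leaving out each library. No 2 libraries were copies: chi-square per degree of freedom between replicates was at least 9.51. Of 166 listed symbols 158 were matched to 1 row, and Cd3e, Tyrobp, C1qa, Dcstamp, Tnfrsf11a, Ctse, Ctsg and Tfec were not analysed here. All 31 genes overlap their GENCODE M21 gene on the same strand. Promoters are RefSeq's, GRCm38.p6, for 26 of the 31.

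The members and the lists of other genes were chosen with earlier results of these data known. Values in every library were given, by rule, for up to 6 genes of smallest p in each direction, the most abundant gene of each role, both transcription factors and untested genes; other genes were added after their values were seen. From each other list, up to 4 genes of smallest p were named, along with genes picked for their call or their level.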

Additional observations from a re-analysis of the deposited data

How the results depend on the processing

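With 6 libraries, the counts of 0 genes called higher and 0 called lower among the 31 held under every alternative that kept all 6 libraries: other pseudocounts, filters, scalings, removal of the length trend, voom, the replicate block and an adjusted p under 0.1. Leaving out 1 library gave 0 to 7 higher and 0 to 3 lower, the highest without young replicate 1. With the length trend removed and that library left out, they were 8 and 1. The cause was not tested.

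Over all tested genes, 177 were higher and 12 lower. A mean RPKM of at least 5, which tests fewer genes, gave 99 higher. Removing the length trend gave 44 lower, and an adjusted p under 0.1 gave 62 lower. Leaving out 1 library gave 80 to 1589 higher and 0 to 2329 lower: 138 and 2 without young replicate 2, 80 to 86 and 0 to 1 without young replicate 3 or 1 of the old libraries, and the highest counts without young replicate 1; with the length trend removed as well as young replicate 1 left out, 1669 and 1852. The replicate block gave 82 higher and 0 lower and changed no call among the 31. Same-numbered libraries deviated together with r of -0.03, -0.44 and 0.33, and pairs of different number gave -0.42 to 0.43. Not every library correlated best with its own number. With 3 libraries a group and young replicate 1 standing apart, these values cannot decide whether the numbers pair the libraries.

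The median log2 fold change of the tested genes, 0.05, was 0.022 under quantile scaling, 0.014 with the length trend removed and 0.019 to 0.064 when 1 library was left out, the lowest without young replicate 1 and 0.024 without old replicate 1. Median-ratio scaling moved the median of all genes by -0.0045. Of 454 single-gene values, 413 kept their direction and their side of the threshold, 18 newly passed it in the same direction and 23, in 11 genes, changed sign. Of the latter, Ctsz without young replicate 1, at 0.25, also passed the threshold. Hexa was at -0.0066 with the length trend removed. Leaving out 1 library changed the sign for 10 genes, with these ranges over the 6 libraries: Ctsa -0.069 to 0.022, Ctsb -0.13 to 0.16, Ctsl -0.0022 to 0.090, Ctso -0.10 to 0.0088, Ctsz -0.24 to 0.25, Hexa -0.091 to 0.20, Psap -0.056 to 0.014, Tpp1 -0.097 to 0.26, Npc1 -0.12 to 0.055 and Npc2 -0.11 to 0.33. With the length trend removed and young replicate 1 left out, Ctsa was at 0.082, Ctsb at -0.073, Ctsl at -0.014, Ctsz at 0.18, Tpp1 at -0.023, Npc1 at 0.049 and Atp6ap1 at -0.00019.

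Genes under a mean of 5 RPKM have no value under the stricter filter. Precision is limited by 3 libraries a group, by the first young library and, for Ctsf and Ctss, by a few reads.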
